A study of Mus musculus with 2 samples.

Results

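The genes described here are 10 antioxidant genes of the NRF2 programme in mouse macrophages: Gclc, Gclm, Slc7a11, Gsr, Txn1, Txnrd1, Prdx1, Srxn1, Nqo1 and Keap1. They were taken by name from the GENCODE M21 gene models of GRCm38 (mm10) and are 10 of 21938 protein-coding genes. For each gene, the peaks that overlapped its record or the 25 kb on either side were collected. A promoter peak overlaps the 1 kb on either side of any annotated start of the gene, and a distal peak overlaps that window for no protein-coding gene.

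The series measured H3K27ac, a histone mark found at active promoters and enhancers, by ChIP-seq. All cells were bone-marrow-derived macrophages of C57BL/6J mice that had received no stimulus, so there is 1 group and no treated or mutant cells to set it against. The 2 biological replicates are separate biosamples that carry 1 donor entry in the labels, and animal-to-animal variation may be missing from their spread. Each library was made from 10 ng of DNA, and the labels give no sex, age or stage.

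NRF2, the product of Nfe2l2, is a bZIP transcription factor that pairs with small MAF proteins and binds the antioxidant response element. In resting cells KEAP1 holds NRF2 in the cytoplasm and hands it to a CUL3 ubiquitin ligase for degradation, and oxidants or electrophiles that modify KEAP1 let NRF2 build up. Its best known target genes make and recycle glutathione, run the thioredoxin system and reduce quinones, and in macrophages they serve defence against the cell's own oxidative burst.

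The lists of replicates 1 and 2 held 29543 and 29345 peaks, with a median width of 898 and 962 bp. Each peak carries a fold over control or background. The fold is the authors' own value and is used here only to rank peaks within a list, where a rank of 0% is the highest fold. A further 2 lists, the replicated and the pooled list, were made by the authors from both libraries together, and their values have no replicate error. The macrophage label was checked against marker genes. All 8 macrophage markers, among them Spi1, Csf1r and Adgre1, had a promoter peak in each replicate, while none of 15 markers of neutrophils, T cells, B cells, fibroblasts or epithelial cells had one in either. In the replicated and pooled lists the neutrophil marker Ltf had a weak promoter peak, with a fold of 3.25 at 86.5% of each list. Where a gene has no peak it was below the authors' threshold, which need not mean that H3K27ac was absent. With 2 libraries of 1 group no test between conditions is possible, and the values are descriptions.

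Acetylation of the 10 genes was uneven. A promoter peak in both replicates was found at 7 of the 10, against 39.4% of all protein-coding genes. The 7 were Txn1, Txnrd1, Prdx1, Keap1, Gsr, Srxn1 and Gclm. The cystine transporter gene Slc7a11 had a weak promoter peak in replicate 2 alone, and Gclc and Nqo1 had none in either replicate. Counted singly, replicate 1 marked 7 of the 10, against 40.5% of all protein-coding genes, and replicate 2 marked 8, against 41.6%. The 2 of 10 without a promoter peak in either replicate compare with 57.3% of all protein-coding genes. A distal peak of replicate 1 that a replicate 2 peak overlapped by at least 1 bp was found within 25 kb of 7 of the 10 genes, against 35.1% of all protein-coding genes. That share is not matched for promoter peaks. Genes with a promoter peak in both replicates had a mean of 1.57 such distal peaks, against 0.876 over all protein-coding genes. Gclc and Slc7a11 were the 2 of 10 genes with such a distal peak and no promoter peak in both replicates, a pattern seen at 12.8% of all protein-coding genes.

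The order of the promoters by fold was the same at its upper and lower ends in both replicates. The lead promoter peak, the one of highest fold in the window, ranked at 3.26% and 2.89% of the list for Txn1 in replicates 1 and 2 and at 7.27% and 6.37% for Txnrd1. Prdx1 (16.7% and 12.5%) and Keap1 (13.4% and 19.2%) exchanged places between replicates, and so did Gsr (19.6% and 21.1%) and Srxn1 (23.9% and 20.8%). Neither pair differed beyond its spread. Gclm followed at 54.4% and 70.7%, and the replicate 2 peak of Slc7a11 at 91.9%. Txn1, Txnrd1 and Gclm thus kept their places, and the 4 genes in the middle did not separate within each pair.

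**Figure D1:**
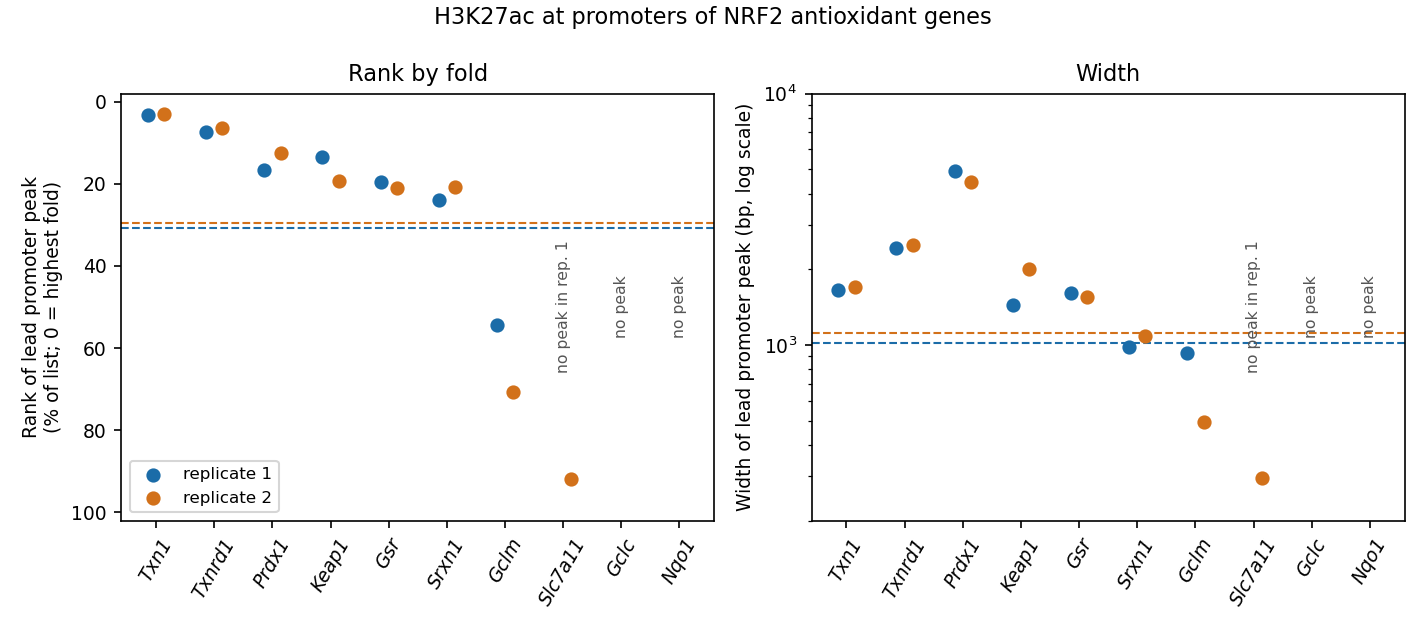
Rank by fold (left, percent of the list, 0 at the top is the highest fold) and width (right, bp on a log axis) of the lead promoter peak of each gene, with replicate 1 in blue and replicate 2 in orange; dashed lines are the medians over all protein-coding genes with a promoter peak in both replicates. Of the 7 genes with a peak in both replicates, 6 lie above the median rank of their replicate, Gclm lies under it, and Prdx1 stands apart by width at 4918 and 4438 bp.

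As a group the 7 promoters had wider and higher-ranked lead peaks than the median marked gene, where marked means a promoter peak in both replicates. Their median width was 1603 bp in replicate 1 and 1701 bp in replicate 2, a mean of 1652 ± 69.3 bp (SD, n = 2). Over all 8633 marked genes it was 1014 and 1117 bp, a mean of 1066 ± 72.8 bp. The median rank of the 7 was 16.68% and 19.23%, a mean of 17.96 ± 1.8%, against 30.64% and 29.43%, a mean of 30.03 ± 0.861%, over all marked genes. Lead peaks in the upper 25% of both lists were found at 6 of the 7 genes, against 39.2% of marked genes, and in the upper 10% at 2 of the 7, against 16.4%. A width of 2 kb or more in both replicates was reached by 2 of the 7, Txnrd1 and Prdx1, against 17.8% of marked genes. With 7 genes these shares are coarse, and nothing particular to the group is read from them.

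**Figure D2:**
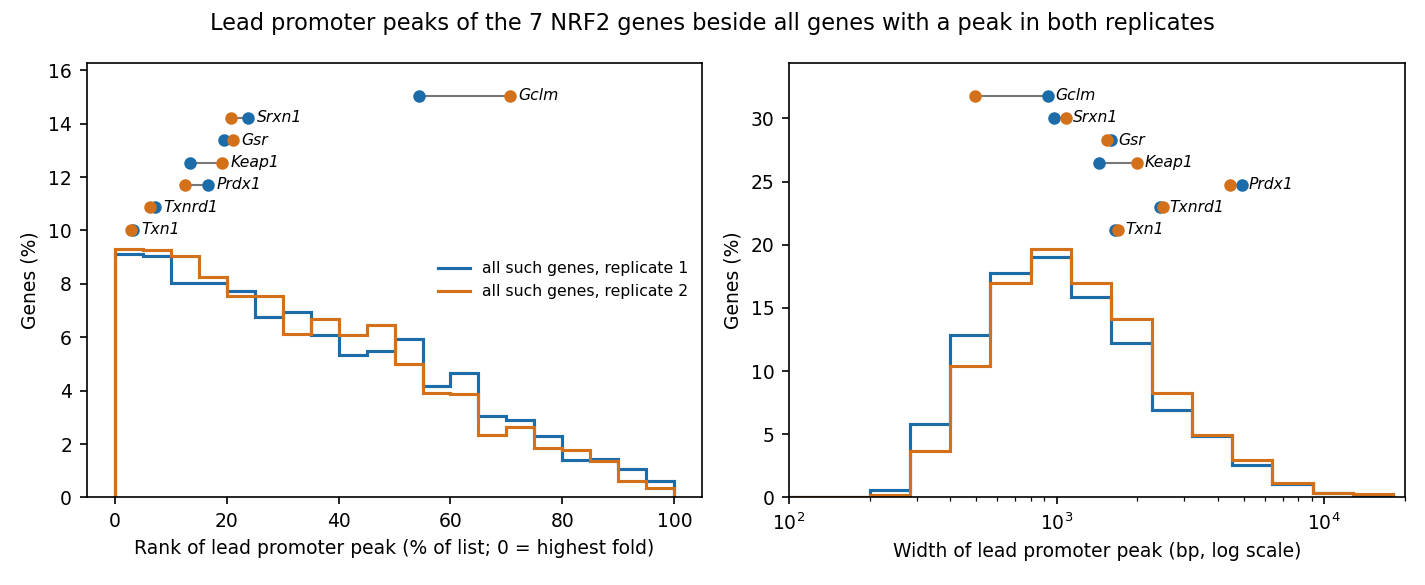
Lead promoter peaks of the 7 genes (points joined by a line, replicate 1 in blue and replicate 2 in orange, at arbitrary heights) over histograms of all 8633 protein-coding genes with a promoter peak in both replicates; the x axes give the rank in percent of the list (left) and the width in bp on a log axis (right), and the y axes the percent of genes per bin. Txn1 and Txnrd1 lie at the high-fold end, Prdx1 in the upper tail of width, and Gclm apart from the other 6 in rank.

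Among the genes of glutathione supply, Gsr and Gclm were marked at the promoter, and all 4 had a shared distal peak. Gclc encodes the catalytic subunit of glutamate-cysteine ligase, the rate-limiting enzyme of glutathione synthesis (ENSMUSG00000032350.9, chr9:77754535-77794485, plus strand). No peak of either replicate overlapped the 1 kb around any of its 3 annotated starts. The replicated list alone held a promoter peak, 514 bp wide with a fold of 3.25, at 86.5% of that list. Upstream of the gene lay 3 distal peaks, each found in both replicates. One, chr9:77749780-77750712 in replicate 1, had a fold of 15.83 and ranked at 16.5%, and its replicate 2 counterpart had a fold of 13.04 and ranked at 23.7%. A second one began 212 bp further on in replicate 1 and 231 bp in replicate 2, with folds of 12.56 and 11.73. The third had its midpoint 16728 and 16714 bp upstream of the 5′ end, with folds of 12.73 and 14.08. The first was the strongest of the 3 in replicate 1 and the third in replicate 2. The nearest annotated protein-coding start to each was that of Gclc itself. In both replicates Gclc thus had acetylated intervals upstream and none at its starts.

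The gap between the adjacent peaks, 203 bp in the replicated list, is shown because it holds the only match to the long form of the antioxidant response element among the peaks, gaps and promoter entries searched for the 10 genes. The words searched for the response element, on both strands, were the core TGACNNNGC, the word TGANTCA of AP-1, and the long form, which is TGANTCA followed directly by GCA and so overlaps the AP-1 word, and the core where its N is C. In human cells GCLC is known for a response element well upstream of its start. The sequence (GRCm38.p6, chr9:77750722-77750924, plus strand) has the match in capitals, as its reverse complement, at chr9:77750744-77750753, at -3791 to -3782 bases from the 5′ end (negative is upstream).
Gclc gap: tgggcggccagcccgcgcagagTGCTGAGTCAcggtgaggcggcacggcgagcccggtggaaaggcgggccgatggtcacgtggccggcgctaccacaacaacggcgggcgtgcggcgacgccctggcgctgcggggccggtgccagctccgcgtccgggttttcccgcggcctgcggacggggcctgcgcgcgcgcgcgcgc
The match lay outside the peaks of both replicates. Among 6614 gaps of up to 500 bp between neighbouring peaks of the replicated list, 0.62% held the long form and 9.46% the core. The gap was examined after the peak positions were known, and a match is a run of letters and not a measured binding site.

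Gclm encodes the modifier subunit of the same ligase (ENSMUSG00000028124.15, chr3:122245557-122270732, plus strand). Its promoter peaks were low and lay upstream of the 5′ end, which no peak covered. The peak closest to the start, chr3:122244796-122245263 in replicate 1, was 468 bp wide with a fold of 3.96, and in replicate 2 it was 495 bp wide with a fold of 4.86. A second peak further upstream had a fold of 6.38 in replicate 1, where it reached into the promoter window and led it, and 7.16 in replicate 2, where it ended outside the window. The lead peaks of the replicates are therefore different peaks, and the 54.4% and 70.7% given for Gclm do not rank the same interval; the peak closest to the start ranked at 85.2% and 70.7%. A distal peak on the far side of the gene was 2085 and 1896 bp wide, with folds of 8.60 and 8.38, and had the start of Bcar3 as its nearest protein-coding start, 3014 and 2926 bp away. The RefSeq promoter entry of Gclm, 250 bases before to 50 after a start (GRCm38.p6, chr3:122245307-122245606, plus strand), is shown because its match to the response element core, in capitals and as its reverse complement, lies between the acetylated interval and the start.
Gclm promoter: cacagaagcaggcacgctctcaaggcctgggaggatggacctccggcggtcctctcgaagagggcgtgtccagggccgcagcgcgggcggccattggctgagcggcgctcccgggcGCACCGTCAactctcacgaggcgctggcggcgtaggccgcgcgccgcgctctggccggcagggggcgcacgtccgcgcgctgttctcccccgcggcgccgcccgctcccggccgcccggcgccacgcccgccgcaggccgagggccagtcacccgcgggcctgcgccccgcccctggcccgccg
The match at chr3:122245423-122245431, at -134 to -126 bases from the 5′ end, was in no peak of either replicate.

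Slc7a11 encodes xCT, the light chain of the cystine-glutamate exchanger that brings in the cystine needed for glutathione (ENSMUSG00000027737.10, chr3:49892526-50443614, minus strand). Its promoter had no peak in replicate 1. Replicate 2 had a pair of weak peaks there, with folds of 3.52 and 2.78, and the 5′ end lay in the gap of 184 bp between them. The replicated list joined them into 1 peak of 977 bp with a fold of 3.53, at 81.1% of that list. Within the gene record 3 distal peaks of replicate 1 were overlapped by replicate 2 peaks. A peak in an intron 36979 and 36816 bp from the 5′ end had folds of 7.57 and 6.54. The other 2, with folds of 14.45 and 3.96, were met by a single replicate 2 peak with a fold of 11.06. Their nearest protein-coding start was that of Pcdh18, 305754 and 306666 bp away. These 2 peaks lay 380535 and 379623 bp from the 5′ end of Slc7a11, inside the GENCODE record of 551089 bp but outside the RefSeq record of 134152 bp. With the RefSeq bounds the distal peaks of the 10 genes numbered 13 in place of 15. The intronic peak nearer the start is represented by the 61 bases around its match to the core (GRCm38.p6, chr3:50406541-50406601, minus strand), shown because it was in a peak of both replicates at a gene whose promoter was not.
Slc7a11 intronic site: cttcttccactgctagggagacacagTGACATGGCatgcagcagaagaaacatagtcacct

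Gsr encodes glutathione reductase, which returns oxidised glutathione to its reduced form (ENSMUSG00000031584.16, chr8:33652523-33698163, plus strand). Its lead promoter peak covered the 5′ end in both replicates. The peak spanned chr8:33651860-33653462 in replicate 1, 1603 bp with a fold of 14.28, and chr8:33651921-33653464 in replicate 2, 1544 bp with a fold of 14.07. The mean width was 1573.5 ± 41.7 bp (SD, n = 2), so the replicates drew nearly the same edges. A weaker second promoter peak followed downstream, with folds of 4.99 and 5.87. The 1 shared distal peak lay in an intron of the neighbouring gene Ubxn8, with folds of 5.51 and 5.53. The core word was found at 2 places in the lead peak of both replicates, as TGACTTAGC at -29 to -21 bases and as TGACCAAGC at 199 to 207 bases from the 5′ end. These positions run from the GENCODE 5′ end. The RefSeq record starts further downstream, at chr8:33653238, so both matches lie upstream of that start. It too lies inside the lead peak of both replicates.

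In the thioredoxin system all 4 genes were marked in both replicates, and the place of the peak differed: the 5′ end was inside it at Prdx1 and Srxn1, between peaks at Txn1 and far from it at Txnrd1. Txn1 encodes cytosolic thioredoxin, the protein disulfide reductant of the system (ENSMUSG00000028367.5, chr4:57943373-57956411, minus strand). It had the highest promoter folds of the 10 genes, 29.77 in replicate 1 and 31.17 in replicate 2, above 94.1% and 94.5% of marked genes. The lead peak, chr4:57956490-57958141 in replicate 1, lay upstream of the single annotated start and was 1652 and 1701 bp wide. A second peak lay downstream, inside the gene, with folds of 9.81 and 11.56. The 5′ end itself fell in the gap between the peaks, 406 bp wide in replicate 1 and 203 bp in replicate 2. No distal peak was called within 25 kb of Txn1 in either replicate.

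Txnrd1 encodes the cytosolic thioredoxin reductase, a selenoprotein that keeps thioredoxin reduced (ENSMUSG00000020250.10, chr10:82833951-82897712, plus strand). The first of its 8 annotated starts had no peak in either replicate. The lead peak lay over internal starts, chr10:82858086-82860512 in replicate 1 and chr10:82858051-82860541 in replicate 2. It was 2427 and 2491 bp wide with folds of 23.23 and 24.80. An annotated start inside the interval lies 25228 bp downstream of the 5′ end of the record, so a promoter defined by that 5′ end alone would have missed this peak, the second strongest promoter of the 10 genes. A start of Gm38560, annotated as a long noncoding RNA of a bidirectional promoter, lies within 1 kb of an annotated start of Txnrd1. Whether the lead peak is shared with Gm38560 was not tested. Of the 3 RefSeq promoter entries for Txnrd1, 2 lie inside the lead peak of both replicates, and the one of them that holds a core (GRCm38.p6, chr10:82858956-82859255, plus strand) is shown, with its match to the core in capitals as the reverse complement.
Txnrd1 internal promoter: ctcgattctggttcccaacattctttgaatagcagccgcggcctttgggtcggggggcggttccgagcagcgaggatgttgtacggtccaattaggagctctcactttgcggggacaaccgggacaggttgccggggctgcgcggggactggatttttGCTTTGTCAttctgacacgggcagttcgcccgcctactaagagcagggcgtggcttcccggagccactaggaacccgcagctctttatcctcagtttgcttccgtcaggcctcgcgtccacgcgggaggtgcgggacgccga
The match, chr10:82859114-82859122, was inside the lead peak of both replicates. The other entry inside the lead peak, chr10:82860091-82860390, and the entry at the first start, where no peak was called, held none.

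Distal peaks of Txnrd1 lay on both sides of the record. The upstream one had its midpoint 19605 and 19523 bp from the 5′ end, with folds of 12.32 and 10.01. Downstream of the gene were peaks with folds of 6.54 and 7.48 and, further on, of 12.73 and 14.75, the last 2258 and 2313 bp wide. The start of Txnrd1 was the nearest protein-coding start to all 3. Cores were found in the upstream peak (TGACTCCGC) and in the nearer downstream one (TGACGAAGC), in the peaks of both replicates. The upstream site is shown with 26 bases on either side (GRCm38.p6, chr10:82814221-82814281, minus strand).
Txnrd1 upstream distal site: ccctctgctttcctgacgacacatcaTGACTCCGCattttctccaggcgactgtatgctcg

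Prdx1 encodes a peroxiredoxin that reduces hydrogen peroxide with electrons from thioredoxin (ENSMUSG00000028691.12, chr4:116685544-116700822, plus strand). It had the widest promoter peak of the 10 genes and, upstream, their strongest distal peak. The promoter peak spanned chr4:116682450-116687367 in replicate 1, 4918 bp with a fold of 15.79, and chr4:116683242-116687679 in replicate 2, 4438 bp with a fold of 18.82. It was wider than the lead peak of 96.7% of marked genes in replicate 1 and 95.1% in replicate 2, and Prdx1 was the 1 of 7 genes at 4 kb or more in both replicates, against 4.99% of marked genes. Its fold was above 70.9% and 77.0% of marked genes, so the promoter stood out by width more than by fold. The replicates differed at the upstream edge, where replicate 2 had a separate peak 669 bp wide with a fold of 7.12 that replicate 1 merged into the promoter peak, while replicate 2 reached further downstream.

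The distal peak spanned chr4:116664028-116670262 in replicate 1, 6235 bp with a fold of 42.33, and chr4:116664133-116670234 in replicate 2, 6102 bp with a fold of 38.54. It ranked at 0.457% and 0.923% of the lists, above every promoter peak of the 10 genes. Its midpoint was 18399 and 18361 bp upstream of the 5′ end of Prdx1 and 15465 and 15503 bp from the start of Akr1a1, the nearest protein-coding start. A further distal peak between it and the promoter had folds of 7.67 and 11.56. The strong peak held 3 matches to TGANTCA and none to the core in the replicated list. The promoter entry of Prdx1 (GRCm38.p6, chr4:116685349-116685648, plus strand) is shown because a match to the core, TGACTCAGC, sits near the start within a promoter peak of both replicates and overlaps a TGANTCA match. Capitals mark both matches to TGANTCA and the core.
Prdx1 promoter: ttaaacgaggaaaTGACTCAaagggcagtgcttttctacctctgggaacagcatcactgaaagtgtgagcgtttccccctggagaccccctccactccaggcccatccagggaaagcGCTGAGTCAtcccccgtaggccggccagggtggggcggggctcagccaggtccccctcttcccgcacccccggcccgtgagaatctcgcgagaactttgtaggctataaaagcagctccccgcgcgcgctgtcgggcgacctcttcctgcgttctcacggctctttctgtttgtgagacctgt
The core lies at -78 to -70 bases from the 5′ end.

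Srxn1 encodes sulfiredoxin, which repairs overoxidised peroxiredoxins (ENSMUSG00000032802.8, chr2:152105516-152111376, plus strand). Its lead promoter peak covered the 5′ end in both replicates and was 980 and 1085 bp wide, with folds of 12.56 and 14.08. Its width was close to the median of marked genes, wider than 48.1% and 48.4% of them. A second promoter peak downstream had folds of 7.74 and 7.71, and no distal peak was called within 25 kb of the gene. The RefSeq promoter entry (GRCm38.p6, chr2:152105274-152105573, plus strand) is shown because it lies inside the lead peak of both replicates and holds 3 matches, in capitals. The first and second in the line are TGANTCA, which they match on either strand, and the last is the core as its reverse complement.
Srxn1 promoter: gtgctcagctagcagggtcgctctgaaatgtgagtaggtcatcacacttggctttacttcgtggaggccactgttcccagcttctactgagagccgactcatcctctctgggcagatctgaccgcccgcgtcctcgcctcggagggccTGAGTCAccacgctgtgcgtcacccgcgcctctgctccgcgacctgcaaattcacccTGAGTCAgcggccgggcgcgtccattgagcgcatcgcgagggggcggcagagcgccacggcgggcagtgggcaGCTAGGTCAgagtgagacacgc
The matches to TGANTCA lie at -94 to -88 and at -37 to -31 bases from the 5′ end, and the core lies downstream of it.

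Nqo1 encodes NAD(P)H quinone dehydrogenase, whose induction is a common readout of NRF2 activity (ENSMUSG00000003849.8, chr8:107388225-107403206, minus strand). No peak of either replicate overlapped the record or the 25 kb on either side. The nearest peak was 32604 bp from the 5′ end in replicate 1 and 32768 bp in replicate 2. In the pooled list alone a peak of 365 bp with a fold of 3.15 lay at the promoter, at 88.4% of that list, and it was not in the replicated list. Nqo1 was the 1 gene of the 10 with neither a promoter nor a distal peak in either replicate, and its promoter entry held no match to the core.

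Keap1 encodes the inhibitor of NRF2, and its acetylation lay inside and downstream of the gene (ENSMUSG00000003308.15, chr9:21229730-21239361, minus strand). The lead peak, chr9:21237231-21238672 in replicate 1 and chr9:21236669-21238673 in replicate 2, began 689 and 688 bp downstream of the 5′ end. It was 1442 and 2005 bp wide with folds of 17.72 and 14.75. A second promoter peak, reaching the window of an internal start, had folds of 8.26 and 10.39. The strongest acetylation near Keap1 was distal, beyond the 3′ end of the gene, at chr9:21220603-21222700 in replicate 1 and chr9:21220535-21222522 in replicate 2, with folds of 30.63 and 28.32. It ranked at 2.9% and 4.16% of the lists, with Keap1 as the nearest protein-coding start, 15542 and 15665 bp away. A weaker distal peak between it and the gene had folds of 6.19 and 5.03. Keap1 and Prdx1 were the 2 of 10 genes with a shared distal peak in the upper 5% of both lists, against 3.27% of all protein-coding genes.

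**Figure D3:**
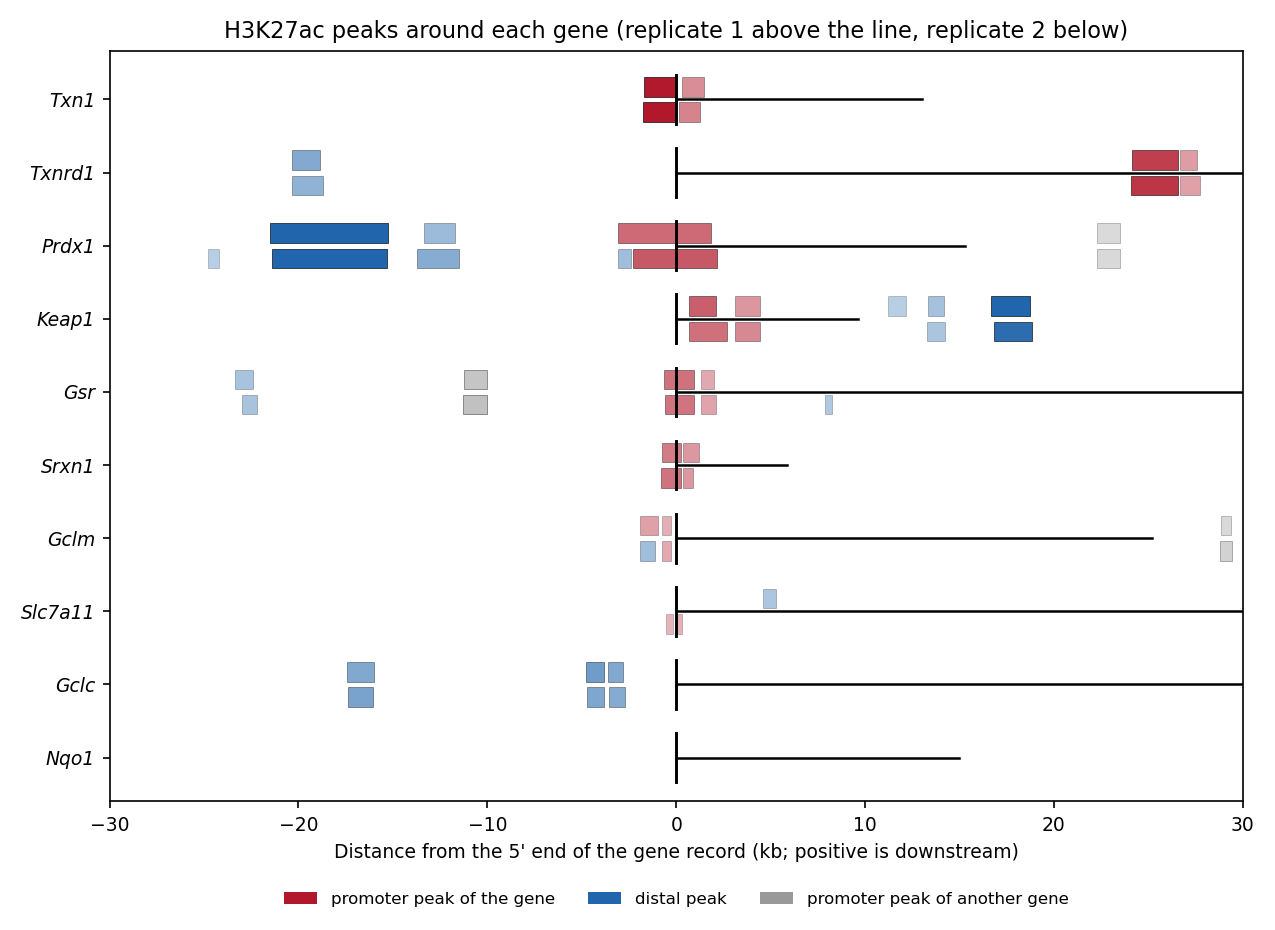
Peaks around the 5′ end of each gene record, with the distance in kb along the x axis (positive is downstream) and the genes down the page; replicate 1 is drawn above each line and replicate 2 under it, the line is the gene record, and darker boxes have a higher fold. The strong distal peaks of Prdx1 and Keap1, the internal promoter peak of Txnrd1 and the upstream peaks of Gclc appear in both replicates, and Nqo1 has none; distal peaks of Txnrd1, Gclm and Slc7a11 beyond 30 kb fall outside the axis.

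Peak calls near the 10 genes were shared between the replicates about as often as over the whole lists, where 91.3% of replicate 1 peaks and 88.6% of replicate 2 peaks overlapped a peak of the other. Of 35 replicate 1 peaks in the windows, 32 overlapped a replicate 2 peak, and the 3 found in replicate 1 alone were all distal. Of 37 replicate 2 peaks, 32 overlapped a replicate 1 peak, and the 5 found alone were the 2 promoter peaks of Slc7a11 and 3 distal ones. The folds of the 8 peaks found in 1 replicate alone were between 2.64 and 4.82. The shared distal peaks numbered 15, a mean of 1.5 per gene, against 0.876 over all protein-coding genes and 1.57 over marked genes. The long Slc7a11 record brings 3 of the 15, and over the other 9 genes the mean was 1.33. The records of the 10 genes had a median length of 20227.5 bp and a mean of 78441 bp, against 17425 and 48964 bp for all protein-coding genes.

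The 5′ end of the record was inside a peak of both replicates at 3 of the 7 marked genes, Srxn1, Gsr and Prdx1, against 37.9% of marked genes. More than 1 promoter peak in both replicates was found at 5 of the 7, Txn1, Txnrd1, Keap1, Gsr and Srxn1, against 40.0%. At Txn1 the start lay between peaks, at Keap1 and Gclm it lay to one side of them, and at Txnrd1 it was far from them. The first of these shares is close to that of marked genes at large and the second is higher, each over 7 genes only.

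**Figure D4:**
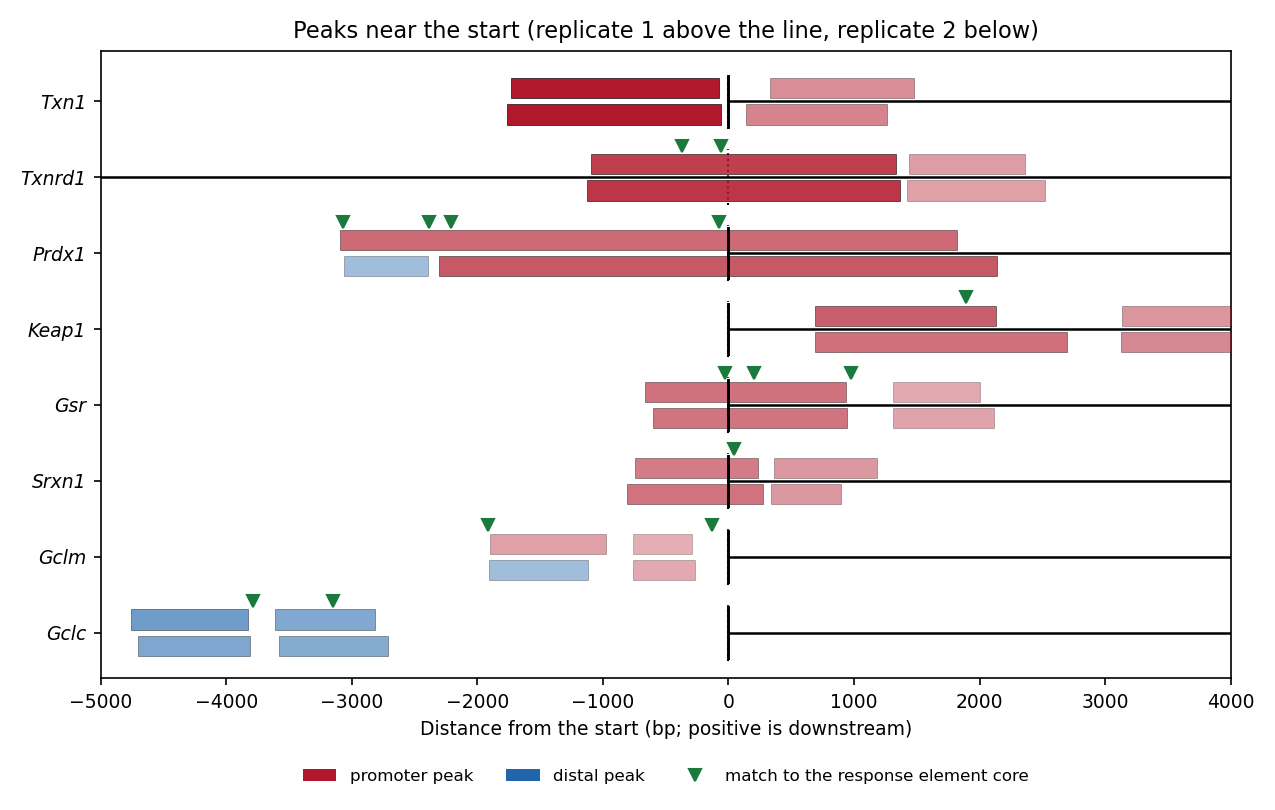
Peaks close to the start of 8 genes by distance in bp (x axis, positive is downstream), with replicate 1 above each line and replicate 2 under it; darker boxes have a higher fold and green triangles mark matches to the response element core. Distances run from the 5′ end of the record, except that those of Txnrd1 run from the internal start inside its lead peak (dotted line), and the match of Gclc at -3790 bp lies between its distal peaks. Matches were searched only in peaks of the replicated list, in gaps of up to 500 bp between them and in promoter entries. A place without a triangle may therefore not have been searched.

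By the bases around the 5′ end of the record, CpG-rich and CpG-poor genes were found among both the marked and the other genes. In the 500 bases on either side of the 5′ end, 6 of the 10 promoters were CpG-rich, against 44.4% of all protein-coding genes, with a GC content of at least 50% and a ratio of observed to expected CpG of at least 0.6. Of those 6, Gclm, Srxn1, Prdx1, Keap1 and Txn1 were marked and Gclc was not, although its GC content was 63.5% and its CpG ratio 0.918. Over all protein-coding genes 61.6% of CpG-rich promoters were marked. Of the 4 without a CpG-rich start, Gsr and Txnrd1 were marked and Nqo1 and Slc7a11 were not, against 21.5% marked among all such genes. The value of Txnrd1, a CpG ratio of 0.23, describes its first start and not the acetylated one. The 5′ end of Gsr lay inside its lead peak, but its RefSeq record starts at chr8:33653238, beyond the 500 bases read. The composition around that start was not computed. The median GC content was 60.4% for the 10 genes, against 54.8% for all protein-coding genes and 58.1% for marked genes.

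RefSeq promoter entries were matched for 8 of the 10 genes. Gclc and Gsr had none. The core was in an entry of 4 of the 8, Gclm, Txnrd1, Srxn1 and Prdx1, against 15.0% of 16522 protein-coding genes with an entry. The long form was in none of the 8, against 0.387%, and TGANTCA was in 2 of the 8, Srxn1 and Prdx1, against 8.15%. At Txnrd1, Srxn1 and Prdx1 the core lay inside a promoter peak of both replicates, and at Gclm it did not. With 500 bases on either side searched, the core was in 6 of the 8, adding Slc7a11 and Keap1, against 37.3% of the 16522 genes. With 8 entries these counts are descriptions, and the core is short enough to occur often. In the 22 distal peaks of the replicated list near the genes, the core was in the central 300 bases of 5, against 13.3% of 19108 distal peaks, and anywhere in 9, against 40.1%. TGANTCA was in the central 300 bases of 3 of the 22, against 14.4% of distal peaks, and anywhere in 5, against 40.7%. The macrophage factor PU.1, whose word was taken as GAGGAAGT, had a match in the central 300 bases of none of the 22, against 6.21% of distal peaks, and anywhere in 5, against 18.7%. The E-box word CACGTG was in the central 300 bases of none of the 22, against 4.74%, and anywhere in 5, against 18.7%. Neither word was in any of the 8 promoter entries, against 3.62% of genes for GAGGAAGT and 9.18% for CACGTG.

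Most other genes of the pathway carried promoter acetylation. Of a list of 43 taken for their roles, 37 had a promoter peak in both replicates, which is 86.0%, beside 7 of the 10 and 39.4% of all protein-coding genes. Their lead peaks had a median rank of 12.9% and 16.5%, against 30.64% and 29.43% for all marked genes. With the 5′ end alone the count was 33 of the 43, beside 6 of the 10. Gpx4, Osgin1, Ephx1 and Sod2 had no peak within 1 kb of the 5′ end in either replicate. They were marked at other annotated starts. At Sqstm1, Gss, Txnrd2, Prdx2, Prdx5, G6pdx, Idh1 and Blvrb, neighbouring coding genes have annotated starts no more than 1 kb away. Whether those promoter peaks belong to the neighbours was not tested. Nfe2l2 itself, singled out with its values known because it encodes NRF2, had promoter folds of 21.85 and 23.46 and ranked at 8.35% and 7.47%.

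Among regulators of NRF2, 7 of 8 were marked, led in the replicated list by Mafg, a small MAF partner, with a fold of 43.13. Maff, another small MAF, had a promoter peak in replicate 1 alone, with a fold of 3.44. Among glutathione genes, 7 of 9 were marked, led by Gpx1, a glutathione peroxidase gene with a fold of 34.14 in the replicated list. The glutathione transferase genes Gstp1 and Gsta4 had no promoter peak in either replicate. Gstp1 has near-identical copies in the mouse genome, so its lack of a peak is uncertain. Among thioredoxin and peroxiredoxin genes, 7 of 8 were marked, led by Txnip, which encodes an inhibitor of thioredoxin and had a fold of 46.47 in the replicated list, and Prdx4, a peroxiredoxin of the endoplasmic reticulum, had a promoter peak in replicate 2 alone.

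Among genes of NADPH supply, 5 of 6 were marked, led by the isocitrate dehydrogenase gene Idh1 (fold of 31.91 in the replicated list), which has a start of Pikfyve within 1 kb. Me1, the cytosolic malic enzyme gene, was without one in either replicate. Among genes of heme, iron and detoxification, 8 of 9 were marked, led by the ferritin light chain gene Ftl1 (fold of 50.46), and Cbr1, a carbonyl reductase gene, had no promoter peak in either replicate. The 3 genes of superoxide and hydrogen peroxide removal were all marked, led by the catalase gene Cat (fold of 10.67). The superoxide dismutase genes Sod1 and Sod2, named after their values were seen, each ranked low, at 65.0% in replicate 1 and 81.0% in replicate 2. Of the 43 genes, 27 had a shared distal peak within 25 kb, against 35.1% of all protein-coding genes. That share is not matched for promoter peaks. Marked genes, as 37 of the 43 are, had a mean of 1.57 shared distal peaks, against 0.876 over all protein-coding genes. The unmarked genes were thus spread over 5 of the 6 roles, as those among the 10 were over glutathione supply and quinone reduction.

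**Figure D5:**
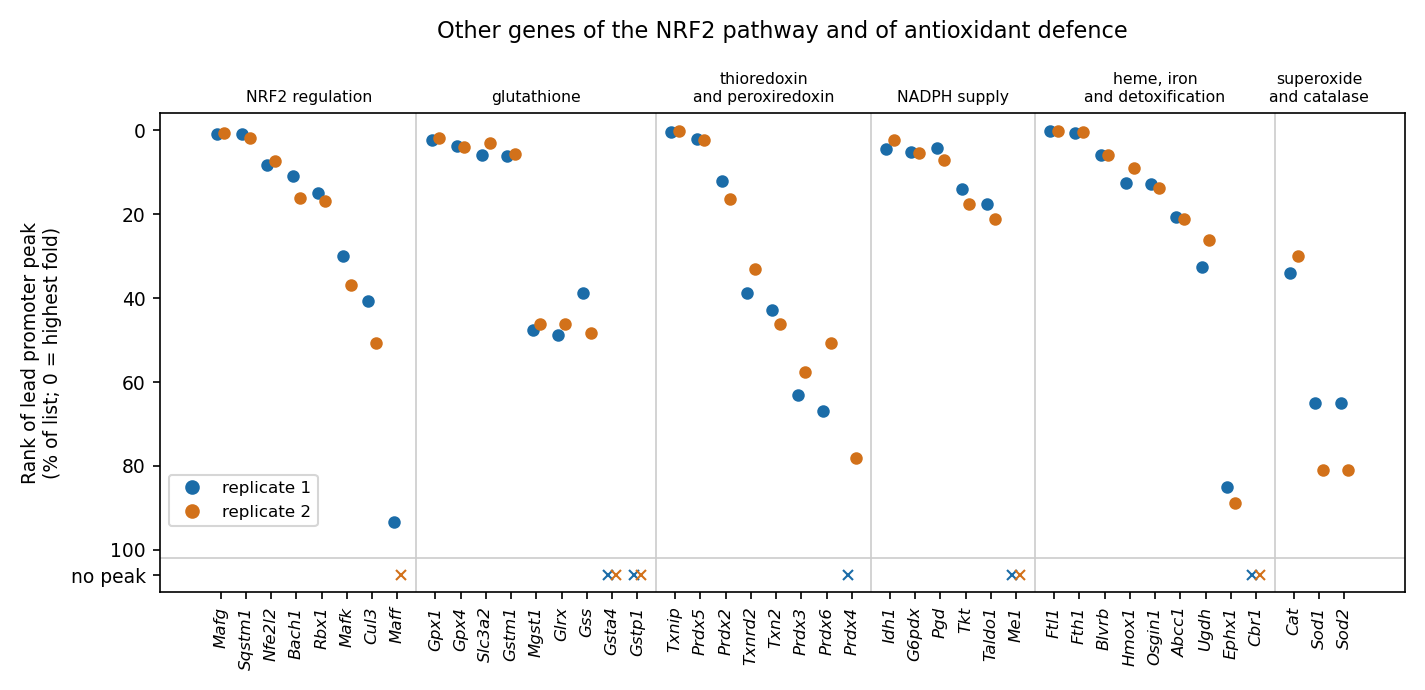
Rank of the lead promoter peak in percent of the list (y axis, 0 at the top is the highest fold) for 43 other genes of the pathway, grouped by role along the x axis, with replicate 1 in blue and replicate 2 in orange; crosses mark genes with no promoter peak in that replicate. In each of the first 5 roles a gene without a promoter peak in both replicates stands beside genes in the upper 10% of the lists.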

How the data were processed

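H3K27ac ChIP-seq peaks of 2 libraries from unstimulated bone-marrow-derived macrophages were taken as deposited, in 4 lists on the mm10 assembly. Per the files' accompanying text, each replicate list came from its own alignments, and the replicated and pooled lists from both together. The fold of a peak, deposited by the authors, is a linear ratio; its q-value was deposited on a −log10 scale. Aligner, caller and settings are not given in the sources used here, nor is the read depth, so no interval for depth is stated.

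Positions are 1-based on GRCm38.p6. Peaks were joined to GENCODE M21 genes with Python 3.11.15, ranked by fold within each list and counted at an overlap of at least 1 bp. Distal peaks were replicate 1 peaks met by a replicate 2 peak. Words and composition were read from the genome with pysam 0.24.0 and samtools 1.23.1; promoter entries are RefSeq's and equal to the genome at all 10 entries of the members. Figures were drawn with matplotlib 3.10.9. The scripts were tested on simulated peaks.

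All 10 members are named. Of the other 43 genes, those named include the highest by replicated list fold in each role and those without a promoter peak in both replicates. Nfe2l2, Sod1 and Sod2 are named as well. So are marked genes with a neighbouring coding start no more than 1 kb away or with no peak within 1 kb of the 5′ end. Members, lists and words were chosen with earlier results of these data known. Alternatives were other promoter windows, the 5′ end alone, other flanks, the joint lists, a −log10 q of at least 5, other overlaps, joined peaks, other ranks, other words, and each replicate alone; RefSeq gene bounds were added after the data were seen.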

Additional observations from a re-analysis of the deposited data

How the results depend on the processing

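Promoter calls kept within 1.5 times under the windows, lists and thresholds tried, and 6 to 9 of the 10 genes had a promoter peak. With the 5′ end alone the count was 6, beside 7922 of all 21938 protein-coding genes. It was 9 in the replicated list and 9 in the pooled list, beside 9614 and 9640 of all protein-coding genes. The 9 included Gclc but not Nqo1 in the replicated list, and Nqo1 but not Gclc in the pooled list. Leaving out a replicate gave 7 and 8 genes, and 18 and 19 distal peaks. Over the 7 genes marked in both replicates, the median widths were then 1603 and 1701 bp and the median ranks 16.7% and 19.2%. Joining peaks within 500 bp raised the median width of the 7 promoters to 2847 bp. No joined width is given for all marked genes, so this value cannot be set against their unjoined median. The median rank of the 7 promoters was 14.9% by −log10 q and 30.2% among lead promoter peaks alone. With 10 kb in place of 25 kb on either side, 3 genes had a distal peak, 7 peaks in all. Counting a distal peak only for the gene with the nearest protein-coding start left 5 genes and 10 peaks. The long form of the response element was in 0 promoter entries, against 0.387% of genes with an entry. It was in the central bases of 0 distal peaks, against 1.27% of all distal peaks. With whole peaks the core was in 9 distal peaks, against 40.1%. These settings change by construction what is joined, counted or ranked; for the rank by −log10 q the cause was not tested. No paired analysis was possible because there is 1 group. Peaks with low folds, as at Slc7a11, Gclm and Nqo1, depend on the authors' threshold and on a read depth that is unknown here.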
